A study of Mus musculus with 6 samples.

Results

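The tumour suppressor p53 is a transcription factor that is held at low levels in unstressed cells and accumulates after DNA damage and other stresses. It then switches on effector genes that halt the cell cycle, trigger cell death, repair DNA or retune metabolism. Described here are 32 such effector genes in satellite cells, the stem cells that renew mouse skeletal muscle, with and without the maintenance DNA methyltransferase gene Dnmt1. The members were picked by gene symbol as p53 effectors, with earlier results of these data known. All 32 had a row in the deposited table of 23420 genes. By their best known roles, 6 act in growth arrest, 12 in cell death or its prevention, 4 in DNA repair and 10 in metabolism.

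Messenger RNA was sequenced in 3 control and 3 Dnmt1 KO samples. The donors were C57BL/6 males aged 7 weeks, bred from Pax7-CreERT2 animals and Dnmt1 flox animals. In Pax7-CreERT2 a tamoxifen-inducible Cre recombinase is driven by Pax7, a gene of satellite cells, so recombination is directed to these cells. Tamoxifen or vehicle was given over 5 days in a row. The sources used here do not assign either agent to a group and do not give the Cre status of the controls. Separate animals per sample are not stated, so each p-value reflects variation among these libraries, part of which could be technical.

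Values are read counts scaled by 1 factor per library. The control libraries held 1403242 to 2021725 reads and the knockout libraries 954786 to 1347051, so every knockout was shallower than every control. A read was worth 0.691 to 1.003 units in controls and 1.003 to 1.43 in knockouts. Dnmt1 lay between 539 and 655 units in the controls and between 36.1 and 81.2 in the knockouts (log2 fold change -3.29, SE 0.27, adjusted p = 0.00121, limma). The satellite cell marker Pax7 had 99 to 124 units in the controls and 58.2 to 66.5 in the knockouts (adjusted p = 0.0441), and was the 1 gene called among 8 satellite markers tested. Control replicate 2 stood apart in 35 contractile genes, whose summed level was 21039 units in it, 2475 to 3283 in the other controls and 4717 to 11728 in the knockouts. Of these, 32 were tested and 0 passed, with 2 higher and 0 lower at an unadjusted p under 0.05 and a median log2 fold change of 0.73. Without control replicate 2, 20 of 31 contractile genes tested were called higher, with a median of 1.91. Of 16 macrophage markers, 8 were at 0 in all 6 libraries, among them Ptprc, C1qa and Tyrobp. The summed level of the 16 was 21.9 to 40.1 units in controls and 78.8 to 201 in knockouts. All 4 tested markers were higher at an unadjusted p under 0.05, and Laptm5 was the 1 that passed. Cd14, among the 4, was at 0 in all controls and tested through its knockout values alone, which fixed its direction. Fcer1g reached 1 unit in only 1 control. Of 12 markers of fibro-adipogenic progenitors, Lum and Dpt were at 0 throughout, while Gsn and Col1a1 rose among 8 tested. The summed level was 393 to 694 units in controls and 709 to 1194 in knockouts. Most of it was Col3a1, which was not called (296 to 489 units in controls, 399 to 488 in knockouts), and Gsn (50.2 to 192 and 267 to 583). Of 6 endothelial and 10 cell division markers tested 0 passed, with 1 endothelial marker higher and 3 division markers lower at an unadjusted p under 0.05. The endothelial marker, Tek, was likewise tested through its knockout values alone. Of all genes tested, 10.7% were higher and 4.8% lower at that p. All 10 division markers had a log2 fold change below 0, with a median of -0.36. In 5 of these 10 all knockouts lay below all controls, where 7.81% of all genes tested did so. The part of these other cell types and of differentiation in the results was not tested.

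Most p53 effector genes lay higher in the cells without Dnmt1, but few passed the test. Over all genes tested, 4 of the 32 members rose, namely Ephx1, Ak1, Zmat3 and Ei24, and 0 fell (limma, adjusted p under 0.05). The background was 1.67% of the 12591 genes tested called higher and 0.0953% called lower, against 12.5% of the members called higher. At an unadjusted p under 0.05, 19 members were higher and 1 lower, where the background was 10.7% higher and 4.8% lower. All 32 members passed the filter on low values, 1 of them through its knockout values alone. The 3 knockout values lay above all 3 control values in 19 members, 59.4% of them, where 13.4% of all genes tested did so. They lay below all 3 controls in 2 members, where the background was 7.81%. The log2 fold change was above 0 in 27 of the 32 members, against 52.4% of all genes. It was above 0 in 26 under median-of-ratios and TMM scaling, where Xpc changed sign, in 24 without control replicate 2, and in 22 of 31 tested without knockout replicate 1. The median over the members was 0.82 on the log2 scale, and over all genes tested it was 0.02. Ptprv passed the filter through its knockouts alone, and Perp and Pltp had 1 control at the filter's minimum. Without these 3 genes, 16 of 29 members had all knockouts above all controls, 24 had a log2 fold change above 0, and 16 were higher at an unadjusted p under 0.05, with a median of 0.73. In bulk samples, more cells that express a gene and more RNA per cell cannot be told apart.

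The number called depended on single libraries. Without control replicate 2, 12 members were higher, with a background of 5.3%, and in the same setting 20 of 31 contractile genes were. The part of the contractile genes' difference in this gain was not tested. Without control replicate 1 or control replicate 3, 1 member was called, and without knockout replicate 3 there were 3. Without knockout replicate 1 or knockout replicate 2, 0 were called. In the authors' deposited table, 9 of the 32 members had a q-value under 0.05, where 1.5% of all 23420 genes did. That total, unlike the 12591 genes tested here, includes 8179 genes at 0 in all 6 libraries. These 9 were the 4 named above together with Btg2, Polk, Dcxr, Ddit4 and Abhd4. On 4 libraries (control replicates 2 and 3, knockout replicates 1 and 3), the values were turned back into reads for edgeR and DESeq2. There edgeR called 0 members (background 0.0905%) and DESeq2 called 1, Ephx1 (background 0.288%). Limma on the scaled values of the same 4 libraries called 0 (background 0.0859%).

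**Figure D1:**
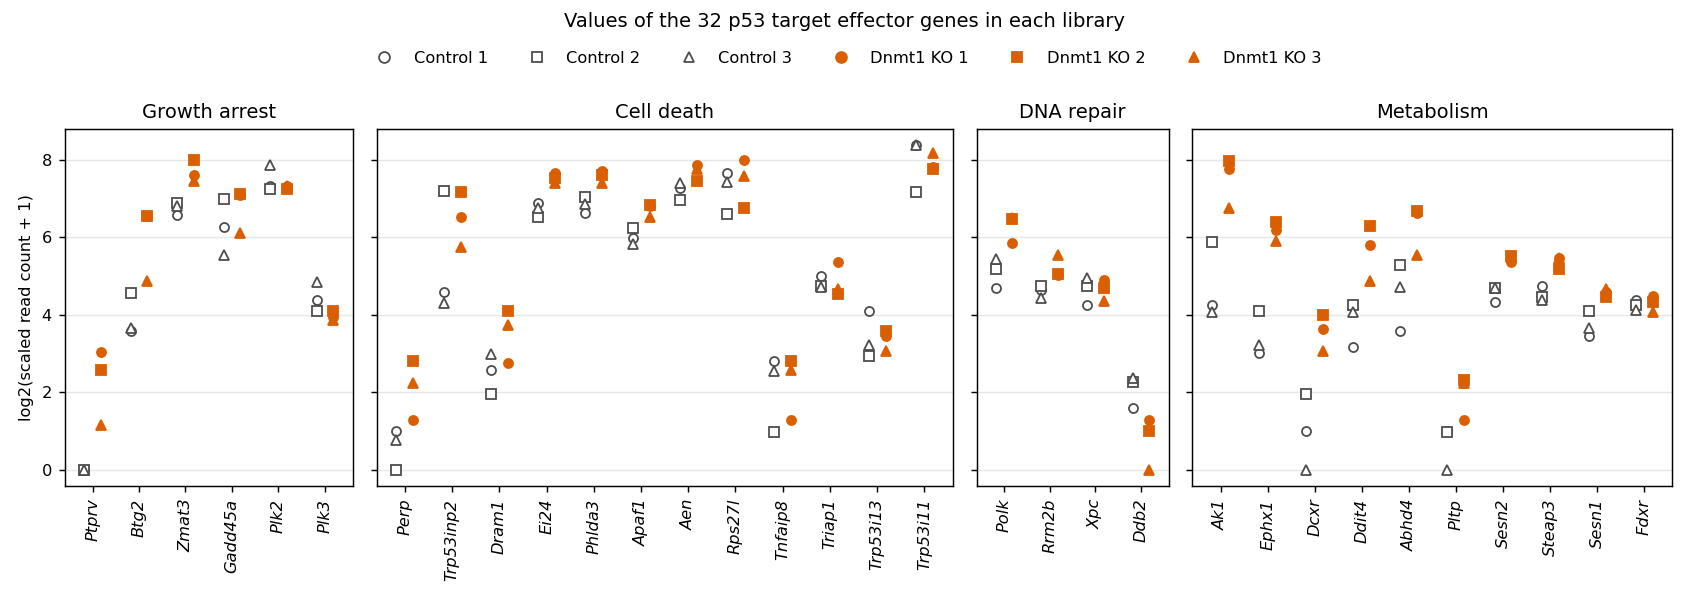
Values of the 32 members on the log2(scaled read count + 1) scale, with 1 point per library, open grey for the 3 controls and filled orange for the 3 Dnmt1 KO samples, by role. All 3 knockouts lie above all 3 controls in 19 members, among them 9 of the 10 metabolic genes, and in 13.4% of all genes tested.

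Sequence around the transcription start sites is shown for the members because p53 acts by binding DNA and Dnmt1 by methylating CpG dinucleotides. RefSeq promoter windows (GRCm38.p6, 250 bases before to 50 after a start) were matched by symbol for 25 of the 32 members, with 36 windows in all. The other 7, Zmat3, Ptprv, Perp, Tnfaip8, Rrm2b, Ddb2 and Xpc, had no entry. The p53 consensus decamer, which reads the same on both strands and occurs as a pair in a complete p53 site, was searched without mismatches. It was found in 8 of the 36 windows (22.2%), which belong to 7 genes, against 8.36% of all 32851 windows and 6.77% of the windows of tested genes. A complete site, a pair of decamers at most 13 bases apart, was in 0 of the 36 and in 0.0731% of all. A match is a description of letters and not a binding site. The matches follow 5′ to 3′ on the strand of the gene, with the decamer in capitals and 10 bases on either side, and the Aen match lies in 2 overlapping windows and is shown once.

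Ei24: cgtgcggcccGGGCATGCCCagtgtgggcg

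Gadd45a: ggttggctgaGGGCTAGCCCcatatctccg

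Aen: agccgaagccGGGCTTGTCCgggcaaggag

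Abhd4: cgacccggcaGGGCTTGTTTactatggctg

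Sesn1: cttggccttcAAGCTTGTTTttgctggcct

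Polk: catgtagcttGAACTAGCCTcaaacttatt

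Rps27l, upstream match: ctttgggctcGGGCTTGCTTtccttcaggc

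Rps27l, downstream match: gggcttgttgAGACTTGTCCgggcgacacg

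Of these 7 genes, Ei24 passed the test, and its decamer (chr9:36797335-36797344) began at position -10, counted from the first transcribed base as +1. The decamer of Gadd45a (chr6:67037438-67037447) began at -40, that of Sesn1 (chr10:41887266-41887275) at -173 and that of Polk (chr13:96519409-96519418) at -231. The Abhd4 match lies at chr14:54259284-54259293 and the Aen match at chr7:78895937-78895946. Those of Rps27l (chr9:66946203-66946212 and chr9:66946306-66946315) began at -210 and -107, and this gene had a log2 fold change of 0.21 (95% interval -0.54 to 0.95). In Abhd4, Sesn1, Polk and Rps27l the matches lay in the window of an inner listed start, from which positions are counted. The window of the outermost listed start of each of these genes held 0 matches.

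The promoters of the 3 called genes that the RefSeq table holds differ in their CpG content, and are printed with each CpG in capitals. Ephx1 (chr1:181017520-181017819, minus strand) has 5 CpG. Ak1 has 4 listed starts, and the window with the most CpG (chr2:32625187-32625486, plus strand) has 10. Ei24 (chr9:36797285-36797584, minus strand) has 21. The median was 21.5 over the windows of the members, 20 over those of tested genes and 7 over all windows.

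Ephx1: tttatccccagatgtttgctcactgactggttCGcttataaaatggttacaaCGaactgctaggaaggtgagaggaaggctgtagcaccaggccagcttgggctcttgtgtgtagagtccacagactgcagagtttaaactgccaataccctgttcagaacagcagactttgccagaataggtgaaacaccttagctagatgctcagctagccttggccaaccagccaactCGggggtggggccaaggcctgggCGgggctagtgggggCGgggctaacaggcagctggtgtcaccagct

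Ak1: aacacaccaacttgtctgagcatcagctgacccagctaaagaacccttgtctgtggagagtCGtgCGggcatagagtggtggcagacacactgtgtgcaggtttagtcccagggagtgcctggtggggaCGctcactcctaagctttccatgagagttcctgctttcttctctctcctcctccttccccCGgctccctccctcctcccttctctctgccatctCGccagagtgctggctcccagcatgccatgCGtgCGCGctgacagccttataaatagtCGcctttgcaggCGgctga

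Ei24: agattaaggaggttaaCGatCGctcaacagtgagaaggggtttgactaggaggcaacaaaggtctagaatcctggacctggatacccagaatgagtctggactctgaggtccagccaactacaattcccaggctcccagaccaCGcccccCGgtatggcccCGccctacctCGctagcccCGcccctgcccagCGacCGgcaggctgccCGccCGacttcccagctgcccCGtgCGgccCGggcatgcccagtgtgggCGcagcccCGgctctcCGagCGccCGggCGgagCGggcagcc

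Ephx1, Dcxr and Ak1, with the fewest CpG among the 25 genes (5, 7 and 10), also had the 3 largest log2 fold changes among them (2.72, 2.59 and 2.76). At the other end, Apaf1 with 46 CpG and Trp53i13 with 43 had log2 fold changes of 0.70 and -0.04. Across the 25 genes, which share the same libraries and are not independent replicates, Spearman's rho between CpG count and log2 fold change was -0.38. This is a description only, since methylation itself was not measured.

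**Figure D2:**
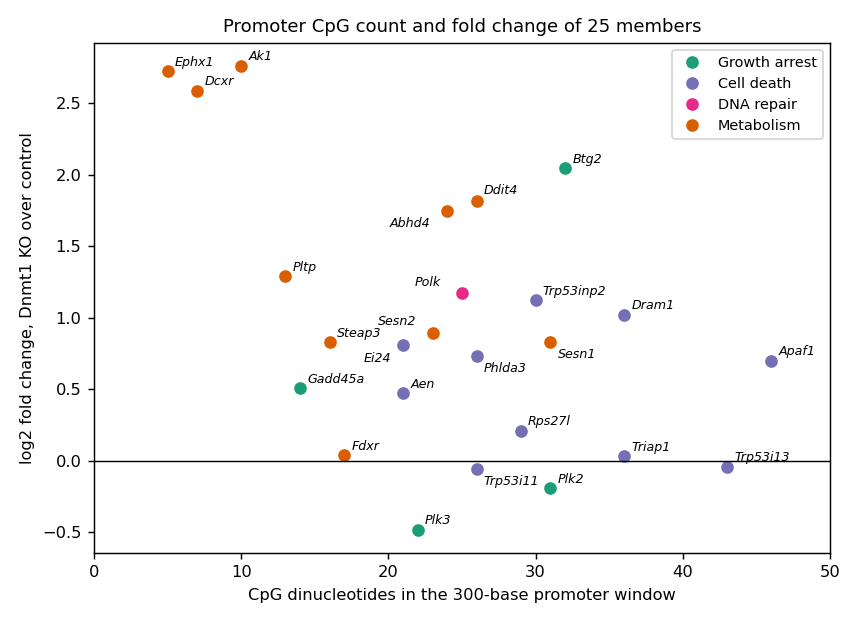
CpG dinucleotides in the 300-base promoter window (x axis, the highest count where a gene has several starts) against the log2 fold change of Dnmt1 KO over control (y axis), 1 point per member, coloured by role. Ephx1, Dcxr and Ak1 lie at the upper left with 5, 7 and 10 CpG.

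Among the 6 arrest genes, 1 rose and 0 fell, with 3 at an unadjusted p under 0.05, all higher, and a median log2 fold change of 0.71. The shares of all genes tested were 1.67% called higher and 10.7% higher at that p. Without Ptprv, whose direction the filter fixed, 2 of the other 5 were higher at that p and the median was 0.51. Zmat3, a zinc finger protein that binds RNA and acts as a tumour suppressor downstream of p53, had 95.3, 118 and 111 units in controls, against 194, 253 and 174 in knockouts. Every knockout lay above every control. The means were 108 ± 11.7 and 207 ± 41.2 (SD, n = 3 each), with a log2 fold change of 0.91 (SE 0.18, adjusted p = 0.0398, limma). Its position is chromosome 3, 32334794 to 32365665 (mm10, minus strand, 6 exons as listed). Its call was lost when any library other than control replicate 2 was left out (adjusted p of 0.0668 to 0.181).

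Btg2, an antiproliferative factor that recruits the deadenylation machinery to messenger RNA, had 11, 22.9 and 11.8 units in controls and 93.2, 92.3 and 28.3 in knockouts. The groups did not overlap, and knockout replicate 3 lay far below the other knockouts. The means were 15.2 ± 6.63 and 71.3 ± 37.2, and the log2 fold change of 2.05 (SE 0.47, adjusted p = 0.0634) missed the threshold. It passed without control replicate 2 (adjusted p = 0.00558) and without knockout replicate 3 (adjusted p = 0.0327). Ptprv, a receptor-type tyrosine phosphatase that mediates p53-dependent arrest in mouse cells, was at 0 in all controls and at 7.17, 5.02 and 1.23 units in the knockouts. These stand for 5, 5 and 1 reads. The knockout mean was at least 5.21-fold higher than 3 reads in the pooled controls (0.859 units), and the gene did not pass (adjusted p = 0.101).

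Gadd45a, a stress-induced protein that binds cell cycle and repair factors, had 76.2, 127 and 45.6 units in controls and 135, 137 and 68.9 in knockouts. The groups overlapped, and the log2 fold change was 0.51 (95% interval -0.32 to 1.33, adjusted p = 0.547). Of its exonic length, 19.4% lies opposite a transcript of the other strand that had at most 2.01 units. The polo-like kinase genes Plk2 and Plk3 did not share this direction. Plk2 had means of 182 ± 45.9 and 156 ± 4.30 units (log2 fold change -0.19, 95% interval -0.61 to 0.22). Plk3 had 20.1, 16.2 and 27.7 units in controls and 14.3, 16.1 and 13.5 in knockouts. All its knockout values lay below the controls, the nearest pair being 16.2 and 16.1, with means 21.3 ± 5.83 and 14.6 ± 1.29, and a log2 fold change of -0.48 (SE 0.31, adjusted p = 0.50).

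Among the 12 genes of cell death, 1 rose and 0 fell, 5 were higher and 0 lower at an unadjusted p under 0.05, and the median log2 fold change was 0.59. The shares of all genes tested were 1.67% called higher and 10.7% higher at that p. Perp, among the 5, had 1 control at the filter's minimum. Ei24, a protein of the endoplasmic reticulum known as an etoposide-induced p53 target, had 118, 90.5 and 107 units in controls and 201, 184 and 169 in knockouts. The groups did not overlap. The means were 105 ± 14.0 and 184 ± 16.1, with a log2 fold change of 0.81 (SE 0.16, adjusted p = 0.0428). It lies on chromosome 9 at 36779153 to 36797393 (minus strand, 12 exons as listed). The call was lost when any library other than control replicate 2 was left out (adjusted p of 0.0944 to 0.176).

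Phlda3, which competes with the survival kinase Akt for membrane lipids, had 97.3, 131 and 115 units in controls and 211, 194 and 167 in knockouts. The groups did not overlap, with means 114 ± 17.1 and 191 ± 21.9, and a log2 fold change of 0.73 (SE 0.17, adjusted p = 0.0696). Apaf1, the scaffold of the apoptosome, had 62.2, 75.2 and 56.0 units in controls and 110, 113 and 91.1 in knockouts, again without overlap (means 64.5 ± 9.82 and 105 ± 12.1, log2 fold change 0.70, SE 0.19, adjusted p = 0.108). Both passed without control replicate 2, with adjusted p of 0.0142 for Phlda3 and 0.0315 for Apaf1. Aen, a nuclease that promotes apoptosis, had 154, 125 and 169 units in controls and 232, 174 and 218 in knockouts. The highest control (169) and the lowest knockout (174) lay close together (means 150 ± 22.7 and 208 ± 30.6, log2 fold change 0.47, SE 0.18, adjusted p = 0.236). Perp, a membrane protein of desmosomes, lay near the limit of detection, with 1, 0 and 1 reads in controls and 1, 6 and 3 in knockouts. Its values were 1.00, 0 and 0.691 units against 1.43, 6.02 and 3.69 (means 0.565 ± 0.513 and 3.72 ± 2.29, log2 fold change 1.52, SE 0.57, adjusted p = 0.236).

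The other 7 genes of this role had overlapping groups. Trp53inp2, a regulator of autophagy, showed the widest spread on the log2 scale, with 23.1, 147 and 18.7 units in controls and 91.8, 143 and 52.9 in knockouts. Control replicate 2 was its highest library. The log2 fold change was 1.12 with all libraries (95% interval -0.36 to 2.61, adjusted p = 0.459) and 2.04 without control replicate 2 (adjusted p = 0.00309). On the 4 libraries that hold control replicate 2 but not control replicate 1 it was -0.21 by edgeR and -0.24 by DESeq2 (adjusted p of 0.979 and 0.9999). By limma on the same 4 libraries it was 0.39 (adjusted p = 0.964), so its sign there depended on the method. Dram1, a lysosomal protein that promotes autophagy, had 5.02, 2.86 and 6.91 units against 5.73, 16.1 and 12.3 (log2 fold change 1.02, 95% interval -0.06 to 2.10).

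Rps27l, a paralogue of a ribosomal protein, had 202, 97.1 and 171 units in controls and 254, 107 and 190 in knockouts. Both replicates numbered 2 were low in it. Other genes share 11.2% of its 50-base words, so that counting could have split its reads. Triap1, an inhibitor of apoptosis in mitochondria, had means of 27.5 ± 3.15 and 28.9 ± 9.78 units (log2 fold change 0.03, 95% interval -0.62 to 0.68). Tnfaip8, which restrains caspase-mediated death, had means of 3.94 ± 2.65 and 4.13 ± 2.39 units. Trp53i11 and Trp53i13, both first described as p53-induced, had log2 fold changes of -0.06 (95% interval -0.72 to 0.61) and -0.04 (95% interval -0.97 to 0.88).

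Of the 4 DNA repair genes, 0 passed the test (limma), and at an unadjusted p under 0.05 Polk and Rrm2b were higher and Ddb2 lower. At that p, 10.7% of all genes tested were higher and 4.8% lower. The median log2 fold change was 0.30. Polk, a polymerase that copies across damaged bases, had 25.1, 35.2 and 42.9 units in controls and 57.3, 88.3 and 89.8 in knockouts. The groups did not overlap, with means of 34.4 ± 8.92 and 78.5 ± 18.3 (log2 fold change 1.17, SE 0.27, adjusted p = 0.0634), and it passed without control replicate 2 (adjusted p = 0.0229). Rrm2b, the p53-induced subunit of ribonucleotide reductase that supplies nucleotides for repair, had 24.1, 25.7 and 20.7 units against 31.5, 32.1 and 45.5. Every knockout lay above every control (means 23.5 ± 2.53 and 36.4 ± 7.92, log2 fold change 0.59, SE 0.26, adjusted p = 0.308).

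The damage sensors of nucleotide excision repair did not follow. Xpc had means of 24.5 ± 5.93 and 24.5 ± 4.52 units (log2 fold change 0.01, 95% interval -0.65 to 0.67). Ddb2, which p53 induces in human but not in mouse cells, had 2.01, 3.81 and 4.15 units in controls and 1.43, 1.00 and 0 in knockouts. All knockouts lay below the controls, on 2, 4 and 6 reads against 1, 1 and 0 (means 3.32 ± 1.15 and 0.812 ± 0.736, log2 fold change -1.31, SE 0.54, adjusted p = 0.278). Of its exonic length, 33.5% lies opposite Acp2, which had 29.7 to 51.2 units, and without a stated strand setting reads of the 2 genes cannot be told apart.

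**Figure D3:**
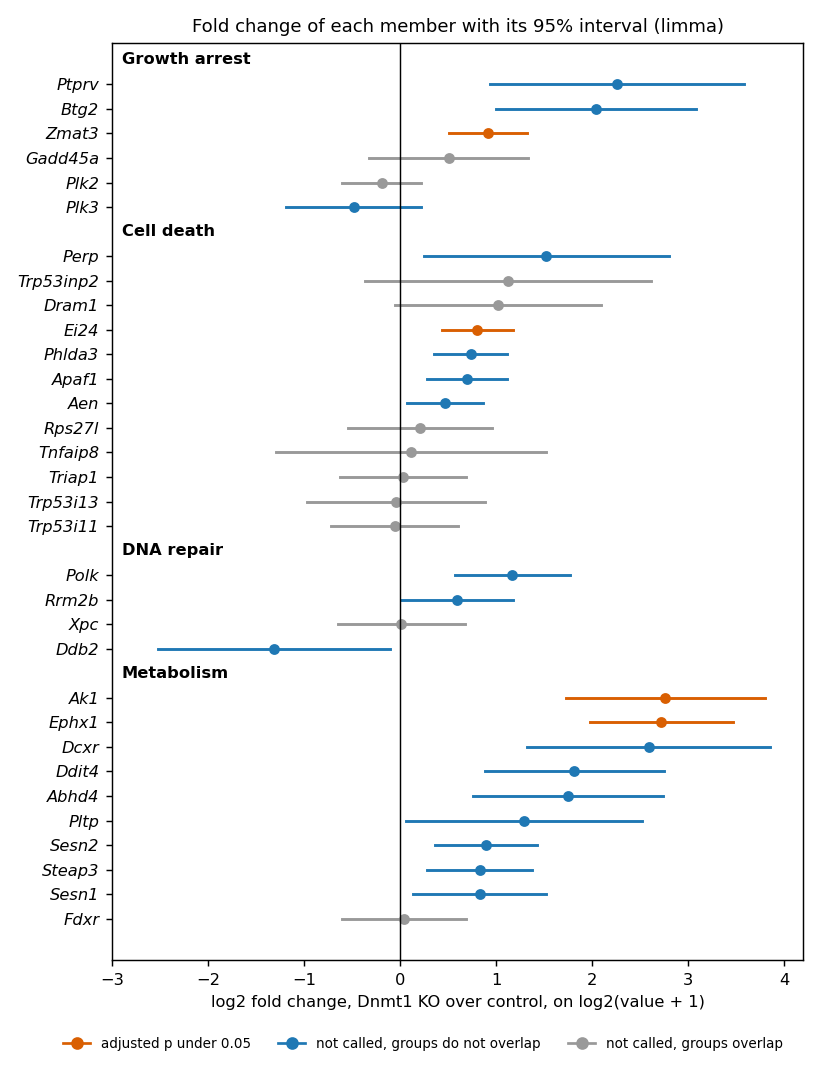
log2 fold change of Dnmt1 KO over control for each member (points) with its 95% interval from limma (bars), by role. Orange marks the 4 called members, blue the members whose groups do not overlap without a call, and grey those that overlap. Intervals of 12 members include 0.

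On the log2(value + 1) scale the metabolic genes Ak1 and Ephx1 had the largest log2 fold changes of all members. By the ratio of means, among members above 0 in the controls, Dcxr (8.78) came before Ephx1 (6.79), the death gene Perp (6.58) and Ak1 (6.23). Of 10 tested, 2 rose and 0 fell, 9 were higher and 0 lower at an unadjusted p under 0.05, and the median log2 fold change was 1.52. Of all genes tested, 1.67% were called higher and 10.7% were higher at that p. In 9 of the 10 all knockouts lay above all controls, where 13.4% of all genes tested did so. Pltp, counted in both sets of 9, had 1 control at the filter's minimum. No test of a difference between the roles was made. Ephx1, the microsomal epoxide hydrolase that detoxifies reactive epoxides, had 7.02, 16.2 and 8.30 units in controls and 71.7, 83.3 and 59.1 in knockouts. The lowest knockout lay far above the highest control. The means were 10.5 ± 4.97 and 71.3 ± 12.1 units, a ratio of 6.79, with a log2 fold change of 2.72 (SE 0.33, adjusted p = 0.00576). It lies on chromosome 1 at 180989556 to 181017495 (minus strand, 9 exons as listed). Leaving out knockout replicate 1 or 2 ended the call (adjusted p of 0.0560 and 0.0589).

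Ak1, the cytosolic adenylate kinase that balances adenine nucleotides and is abundant in muscle, had 18.1, 58.1 and 15.9 units in controls and 215, 250 and 108 in knockouts. Control replicate 2 was the highest control and knockout replicate 3 the lowest knockout, and the groups did not overlap. The means were 30.7 ± 23.8 and 191 ± 73.8 units, a ratio of 6.23, with a log2 fold change of 2.76 (SE 0.47, adjusted p = 0.0201). It lies on chromosome 2 at 32621758 to 32635058 (plus strand, 9 exons as listed). The call ended with control replicate 1 left out (adjusted p = 0.104), with control replicate 3 left out (0.0663), and with either knockout replicate 1 or knockout replicate 2 (0.125 for each).

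Dcxr, which reduces sugars and dicarbonyl compounds, had 1.00, 2.86 and 0 units in controls and 11.5, 15.05 and 7.38 in knockouts. These rest on 1, 3 and 0 reads against 8, 15 and 6 (means 1.29 ± 1.45 and 11.3 ± 3.84, log2 fold change 2.59, SE 0.57, adjusted p = 0.0546). Ddit4, a stress-induced inhibitor of the growth kinase complex mTORC1, had 8.03, 18.1 and 15.9 units against 54.5, 77.3 and 28.3. The groups did not overlap (means 14.0 ± 5.30 and 53.3 ± 24.5, log2 fold change 1.82, SE 0.42, adjusted p = 0.0645). Abhd4, a hydrolase of N-acyl phospholipids, had 11, 38.1 and 25.6 units against 97.5, 102 and 45.5 (means 24.9 ± 13.5 and 81.8 ± 31.5, log2 fold change 1.75, SE 0.44, adjusted p = 0.0930). All 3 genes passed without control replicate 2, with adjusted p of 0.00618 for Dcxr, 0.0100 for Ddit4 and 0.00539 for Abhd4.

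The sestrins restrain mTORC1 when amino acids are short or cells are stressed. Sesn2 had 19.1, 24.8 and 24.9 units in controls and 40.1, 45.1 and 44.3 in knockouts, with narrow spread in both groups (means 22.9 ± 3.33 and 43.2 ± 2.68, log2 fold change 0.89, SE 0.24, adjusted p = 0.107). Sesn1 had 10.03, 16.2 and 11.8 units against 22.9, 21.1 and 24.6 (means 12.7 ± 3.18 and 22.9 ± 1.77, log2 fold change 0.83, SE 0.31, adjusted p = 0.235). Steap3, a reductase of endosomal iron, had 26.1, 21 and 20.1 units against 43.0, 35.1 and 43.1 (means 22.4 ± 3.25 and 40.4 ± 4.58, log2 fold change 0.83, SE 0.25, adjusted p = 0.141). In all 3 genes every knockout lay above every control, and none passed with all libraries or without control replicate 2.

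Pltp, a phospholipid transfer protein, had 1.00, 0.952 and 0 units in controls and 1.43, 4.01 and 3.69 in knockouts, on 1, 1 and 0 reads against 1, 4 and 3 (means 0.652 ± 0.565 and 3.05 ± 1.41, log2 fold change 1.29, SE 0.55, adjusted p = 0.294). Of its exonic length, 27.4% lies opposite Ctsa, which had 56.6 to 79.3 units. Fdxr, which passes electrons to mitochondrial steroid and iron-sulphur pathways, had 20.1, 18.1 and 16.6 units against 21.5, 19.1 and 16.0, with overlapping groups (log2 fold change 0.04, 95% interval -0.60 to 0.68).

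Levels of the members spanned a wide range. Per kilobase of exonic length, mean control levels ran from 0 for Ptprv to 337 units for Rps27l, with a median of 8.47. Trp53i11 (101 units per kilobase), Phlda3 (78), Gadd45a (67.7) and Plk2 (65.1) came next after Rps27l. Of the genes that rose, Ei24 (46.0), Zmat3 (13.9) and Ak1 (13) lay above that median and Ephx1 (6.31) below it.

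In 11 of the 32 members, 34.4% of them, control replicate 2 was the highest control and knockout replicate 3 the lowest knockout, against 17.8% of all genes tested and 31 of 32 contractile genes tested. The 11 were Gadd45a, Btg2, Zmat3, Phlda3, Apaf1, Trp53inp2, Ephx1, Dcxr, Ddit4, Ak1 and Abhd4. Ei24 was the 1 gene that rose outside this set. Averaged on the log2 scale, the contractile list stood at 7.5 in control replicate 2, at 3.87 and 3.34 in the others, and at 6.35, 6.35 and 4.26 in knockout replicates 1, 2 and 3. Its part in the members' differences was not tested. Of the 11 genes, 9 had knockout values all above the controls, and Gadd45a and Trp53inp2 overlapped.

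**Figure D4:**
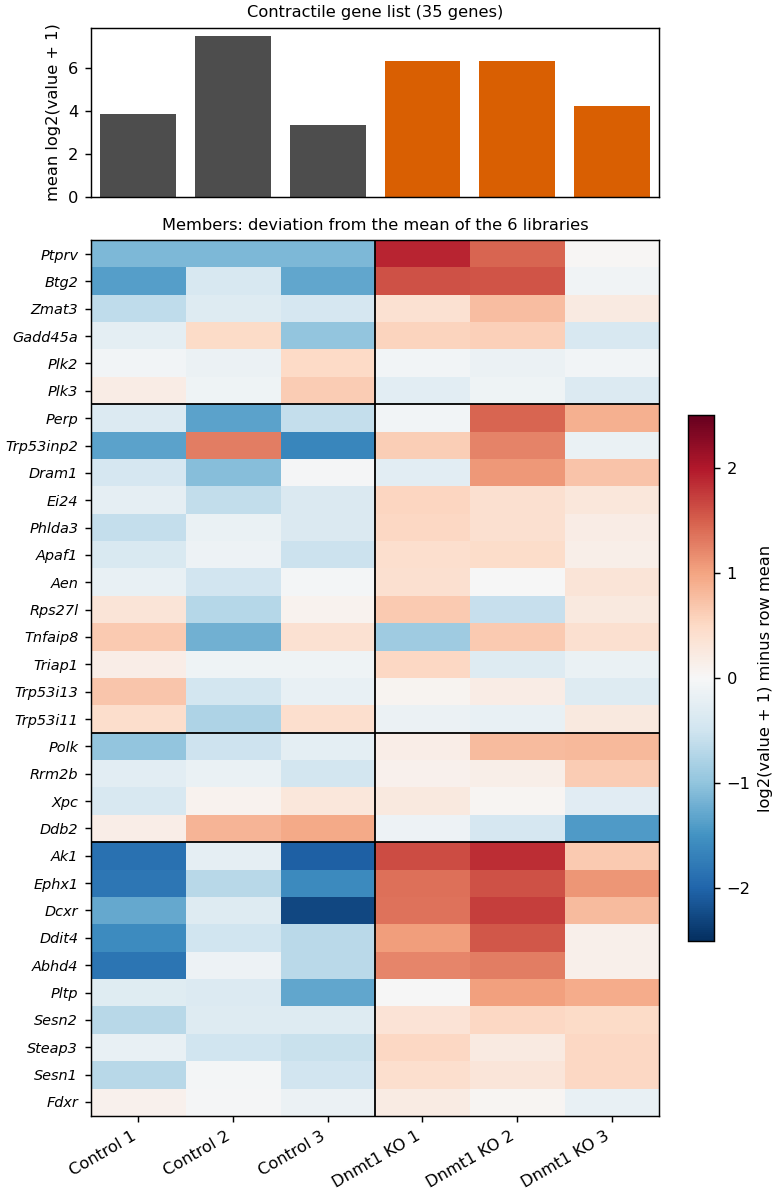
Upper panel, mean log2(value + 1) of the 35 contractile genes in each library. Lower panel, each member's log2(value + 1) minus its mean over the 6 libraries (red above, blue below), in the order of the plot of fold changes. Control replicate 2 has the tallest bar, at 7.5.

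Other genes of the p53 pathway were also counted. Of 32 further listed genes, 31 had a row and 30 were tested, 7 rose and 0 fell, and 27 had a log2 fold change above 0, with a median of 0.73. At an unadjusted p under 0.05, 20 were higher and 0 lower. Of all genes tested, 1.67% were called higher, 52.4% had a log2 fold change above 0 and 10.7% were higher at that unadjusted p. Fas, among the 20, passed the filter through its knockouts alone. The 7 genes that rose were Ccng1, Mdm2, Trp53inp1, Tnfrsf10b, Eda2r, Psrc1 and Ercc5. Psrc1, a microtubule-associated protein of the mitotic spindle, rose from 21.6 ± 1.14 to 81.5 ± 17.1 units (log2 fold change 1.85, SE 0.23, adjusted p = 0.00636). Ercc5, the endonuclease of nucleotide excision repair, rose from 40.3 ± 7.34 to 90.9 ± 9.99 units (log2 fold change 1.17, SE 0.21, adjusted p = 0.0262). Cdkn1a, the inhibitor of cyclin-dependent kinases, had overlapping groups (log2 fold change 1.25, adjusted p = 0.215) with all libraries. Leaving out control replicate 2 brought it past the threshold, at 1.86 on the log2 scale (adjusted p = 0.000334). Trp53 itself, which encodes p53, had means of 278 ± 46.6 and 268 ± 32 units (log2 fold change -0.05, adjusted p = 0.919). Of 18 tested genes of the damage signalling kinases and their partners upstream of p53, 0 passed (limma). At an unadjusted p under 0.05, 0 were higher and 2 lower, where 4.8% of all genes tested were lower. The median log2 fold change was -0.21, and it was above 0 in 4 of the 18. All knockouts lay below all controls in 2 of them, where 7.81% of all genes tested did so.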

How the data were processed

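RNA of 6 samples, 3 control and 3 Dnmt1 KO, was measured by sequencing of libraries from a strand-preserving kit, per the labels' protocols. Reads were aligned with TopHat to mm10 and counted per gene with featureCounts, per the submitters' processing notes. The sources used here name no version, annotation, strand setting or scaling method. The deposited columns hold a scaled count signal. In all 6 columns 100% of values came out whole (within 0.001 of a read) when divided by the lowest nonzero one. A p-value and a q-value per gene, from a test by the authors that no source used here names, were also deposited.

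Values were transformed as log2(value + 1), which understates changes of low genes. Genes with at least 1 unit in at least 3 libraries were kept. A single read reached 1 unit in control replicate 1 and in every knockout, but not in control replicates 2 and 3. Knockout and control were compared by limma 3.58.1 (R 4.3.3, trended prior), adjusting by Benjamini-Hochberg across 12591 genes with a threshold of 0.05. Adjusted p-values are limma's except where another tool is named. The test was checked on simulated data with the same spread in every library. That check does not cover a library that stands apart, as control replicate 2 did here. For a gene at 0 in the controls a bound used 3 pooled control reads (0.859 units), which covers counting error only. Promoters were taken from RefSeq (GRCm38.p6) and 50-base words from GENCODE M21 transcripts. Older symbols matched Pidd1 and Tigar.

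All 32 members were accounted for, with full statistics for those past the threshold or without overlap between the groups. Other p53 genes were named where past the threshold, with Cdkn1a, Mdm2 and Ccng1. The members and lists were chosen with earlier results of these data known. Alternatives comprised 3 scalings, 2 filters, a pseudocount of 0.1, blocking on replicate number and leaving out libraries singly. Further alternatives were edgeR 4.0.16 and DESeq2 1.42.0 on reads recovered in 4 libraries (control replicates 2 and 3, knockout replicates 1 and 3). Control replicate 1 and knockout replicate 2, where 1 read was worth 1.003 units, were left out of these count tests. Their values had also come out whole, so the recovery itself did not require leaving them out. Limma on those 4 libraries was chosen after seeing the data.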

Additional observations from a re-analysis of the deposited data

How the results depend on the processing

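The median log2 fold change over the members lay between 0.71 and 0.83 with each library left out, and Dnmt1 between -3.51 and -2.93. The number of members called higher was 4, with 0 to 12 when a library was left out. By role it was 0 to 2 for arrest, 0 to 4 for death, 0 to 1 for repair and 0 to 5 for metabolism. No member and no other p53 gene was called lower in any setting tried. For the other p53 genes called higher the range was 2 to 14, and for all genes 12 to 659 higher and 1 to 114 lower. A pseudocount of 0.1 gave 2 members (arrest 0, death 0), and 121 genes higher and 6 lower. With no filter arrest had 2. The replicate block gave 11 members (arrest 2, death 3, repair 1, metabolism 5), adding Btg2, Phlda3, Apaf1, Polk, Dcxr, Ddit4 and Abhd4, 11 other p53 genes, and 359 genes higher and 76 lower. Same-numbered samples had correlations of -0.0576, 0.225 and 0.313 in their deviations. Not all exceeded 0.1, and no label ties the numbers, so the samples were not treated as paired, although 4 of 6 correlated best with their own number. On 4 libraries, which holds fewer samples, edgeR called 0 members (all roles 0), 0 other p53 genes, 11 genes higher and 1 lower. DESeq2 called 1 member, Ephx1 (metabolism 1, arrest 0, death 0), 3 other p53 genes, 35 genes higher and 1 lower, and limma 0 members, 0 other p53 genes, 10 higher and 1 lower. The 3 scalings kept the same 4 members called, and under median-of-ratios and TMM scaling Xpc changed sign (-0.01 and -0.02). With libraries left out or on 4 libraries, Plk2, Trp53i11, Trp53i13, Rps27l, Triap1, Tnfaip8, Fdxr and Xpc also changed sign in at least 1 setting, as did Trp53inp2 by edgeR and DESeq2, and none of these had been called. Otherwise the cause was not tested. Members under 10 units in the controls, 7 of 32, rest on few reads.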
